A study of Mus musculus with 8 samples.

Results

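The trophectoderm is the outer layer of the blastocyst and the source of the trophoblast of the placenta. Here 10 transcription factor genes that govern this lineage (Cdx2, Elf5, Elf3, Tfap2c, Tfap2a, Gata2, Gata3, Hand1, Tead4 and Ets2) were followed in mouse embryonic stem cells. They were selected by gene symbol, and all 10 were found among the 19429 genes of the RNA-seq table. The cells were of the line LF2, grown with leukaemia inhibitory factor and serum, with a C-terminal FLAG tag on TET1 in both genotypes. WT lines 2 and 5 carried otherwise wild-type TET1, and in D2018A lines 7 and 8 an aspartate of TET1 that contributes to binding of the O-GlcNAc transferase OGT was replaced by alanine in both gene copies. In both genotypes a fluorescent protein was also made from the tagged locus, and each line was grown from 1 cell. With 2 technical replicates of every line there were 4 libraries per genotype, but only 2 independent lines against 2. The study's methods also describe a deletion distal to the Cas9 cut site that the WT cells carried and the D2018A cells did not. The study also assayed cells with wild-type TET1 and an intact copy of that region. From these it attributed its differences in expression and 5-methylcytosine to D2018A, but its listed qPCR primers cover none of the 10 genes. The part of the deletion in the values below was not tested.

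In the embryo TEAD4, together with its coactivators YAP and TAZ, switches on Cdx2 and Gata3 in outer cells, and CDX2, ELF5, EOMES and TFAP2C then maintain trophoblast stem cells. In embryonic stem cells this programme is kept off. The Elf5 promoter is a textbook barrier between the lineages, because it is methylated in embryonic stem cells and unmethylated in trophoblast stem cells. TET enzymes oxidise 5-methylcytosine, so the comparison asks whether these genes moved when the contact between TET1 and OGT was weakened. Of the list, Tfap2c has a second role in naive pluripotent cells and germ cells, and Ets2 and Elf3 are ETS factors that are also found outside the trophoblast.

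Because DNA methylation acts on CG dinucleotides, promoter sequence is given for 3 members that differ in CG content. Elf5 and Cdx2 had the lowest RNA levels of the list. The level of Gata2 was well above theirs, though below the median coding gene. The stretches are the 250 bases before a RefSeq start on GRCm38.p6, written 5′ to 3′ on the strand of the gene, with every CG in capitals. The Elf5 stretch (chr2:103423818-103424067, plus strand) lies inside the gene before its downstream start, the Cdx2 stretch (chr5:147307250-147307499, minus strand) lies before its single listed start, and the Gata2 stretch (chr6:88193641-88193890, plus strand) lies directly before the annotated gene.
Elf5: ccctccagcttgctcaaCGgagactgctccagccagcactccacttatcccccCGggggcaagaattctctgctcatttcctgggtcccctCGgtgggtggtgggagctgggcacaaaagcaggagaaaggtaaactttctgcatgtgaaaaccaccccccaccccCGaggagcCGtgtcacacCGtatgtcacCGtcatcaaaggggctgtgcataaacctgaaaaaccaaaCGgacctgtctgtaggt
Cdx2: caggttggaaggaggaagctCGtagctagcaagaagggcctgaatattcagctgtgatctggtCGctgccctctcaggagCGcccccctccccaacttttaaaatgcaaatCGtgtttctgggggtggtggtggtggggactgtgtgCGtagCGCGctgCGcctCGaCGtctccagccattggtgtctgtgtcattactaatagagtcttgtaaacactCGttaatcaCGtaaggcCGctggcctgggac
Gata2: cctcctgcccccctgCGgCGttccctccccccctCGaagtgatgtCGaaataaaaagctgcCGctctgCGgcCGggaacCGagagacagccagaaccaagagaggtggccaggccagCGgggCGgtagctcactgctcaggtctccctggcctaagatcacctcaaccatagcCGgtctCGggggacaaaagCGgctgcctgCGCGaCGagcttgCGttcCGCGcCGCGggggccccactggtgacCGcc
The Elf5 stretch held 8 CG dinucleotides, the Cdx2 stretch 13 and the Gata2 stretch 22, against a median of 6 over the 32851 promoter windows of the RefSeq table. The share of all windows with as many CG or more was 43.0% for the Elf5 count, 31.5% for the Cdx2 count and 14.8% for the Gata2 count. Upstream of the other Elf5 start there were 2, and 81.2% of windows held as many. The table gave windows for 7 of the 10 members. Those of Elf3 (8), Tfap2a (10 at each of its starts), Gata3 (19), Ets2 (25) and the second Gata2 start (24) completed the range, so among these 7 only Elf5 had a start with fewer CG than the median window. All 250 bases of the windows of Ets2, of the second Gata2 start and of the Elf5 start with 2 CG lay in annotated exons. In a Tfap2a window 180 bases did, and in the remaining windows at most 96, for Elf3. These counts are therefore partly of transcribed sequence. Tfap2c, Tead4 and Hand1 had no entry. Methylation of these sequences was not analysed here.

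The members fell into 2 sets by level. Levels are the authors' mean normalised counts in the deposited table, averaged over all libraries of their fit and divided here by the length of the gene's merged exons in kilobases. Elf3 (466 per kb), Tfap2c (460), Tead4 (240) and Ets2 (232) formed the upper set. All 4 had means of at least 800 normalised counts and stood above at least 87.0% of the coding genes in the table, and Elf3 stood above 93.7% of them. Gata2 followed at 18.9 per kb, below the median coding gene, and Hand1 at 6.79. Tfap2a lay at 4.75 per kb and Gata3 at 3.48. Cdx2, the homeobox gene that defines the trophectoderm, was at 0.659 per kb, and Elf5, an ETS factor of trophoblast stem cells, was lowest at 0.192. Neighbours in this order are not separated by any measure of spread, since the means carry no error, and Elf3 and Tfap2c, as well as Tead4 and Ets2, exchanged places when the longest transcript was taken as the length.

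**Figure D1:**
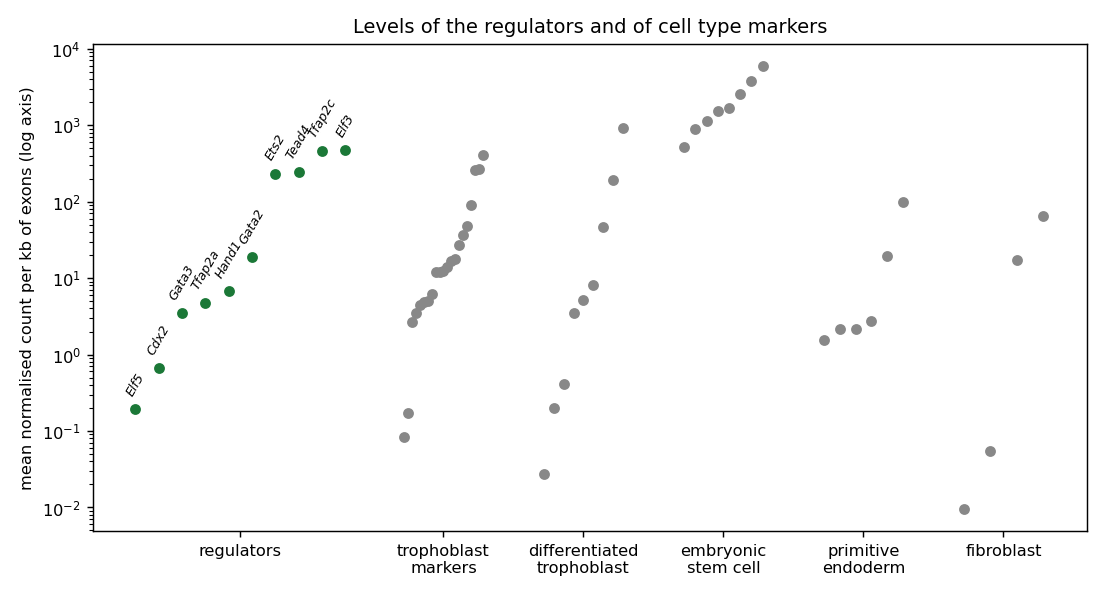
Mean normalised count per kilobase of exons (log axis), with 1 point for each gene of the 10 regulators and of 5 marker lists that had a value in the table, ordered by level within a list. Elf3, Tfap2c, Tead4 and Ets2 lie between 232 and 466 per kb, all below the lowest embryonic stem cell marker (520) on this scale, whereas Cdx2 and Elf5 lie under 1.

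These levels were set beside markers of the labelled cell type. All 8 embryonic stem cell markers were present, from Zfp42 at 520 per kb over Pou5f1 at 894 and Dppa5a at 1670 to Esrrb at 3817 and Utf1 at 5903, with Tdgf1 at 1129, Sox2 at 1527 and Nanog at 2572. Per kilobase of merged exons, Elf3 and Tfap2c lay below all 8 of these markers, a comparison that was not made with the longest transcript as length. Of 7 fibroblast markers 4 were in the table. Col1a2 and Col3a1 had means under 1, while Thy1 (mean 194, 64.8 per kb) and Col1a1 (mean 115, 17.5 per kb) did not. Primitive endoderm markers ran from Foxa2 with a mean of 5.16 to Sox7 with 331. The summed means were 46214 for the embryonic stem cell markers, 456 for primitive endoderm and 310 for fibroblast markers. These sums are not divided by length and the lists differ in size, so they give no comparison of levels between lists.

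The means were taken over more libraries than the 8 described. Genes with a single read left 12 steps among the lowest means, 4 raised D2018A, 4 raised WT and 4 moved neither, so the fit held 12 libraries, with size factors (the relative depth of each library) from 0.726 to 1.47. The deposited table holds no value per library, and thus neither a level per line nor an SD can be given. Instead, for the called genes, the mean of each genotype was computed for the case that the 4 remaining libraries held no read of the gene and the fold change was as fitted, and it is called the limit below. It carries the error of the fold change, which fixes the ratio of the 2 limits, and is therefore no separate evidence of a difference.

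Between the genotypes, 2 of the 10 regulators changed and both changed by less than 2-fold. Tfap2c, which encodes the AP-2 gamma factor of trophoblast and naive cells, fell, and Ets2, an ETS factor needed in extraembryonic tissue, rose. Tead4 missed the threshold narrowly, 5 others did not pass the test, and the reads of Cdx2 and Elf5 were too few for one. A gene was called when its DESeq2 p-value, adjusted over all tested genes, was under 0.05. These p-values treat technical replicates as separate libraries, so each test was repeated with every standard error scaled up by the root of 2, called wider errors below. The spread between lines is not known, so this setting does not replace a test between lines. Its p-values may still be too low. Of the 15285 genes tested 8.71% were called, 4.29% as higher and 4.42% as lower in D2018A. Among the 8 tested members 1 was called in each direction, and none passed with a change of at least 2-fold, which 2.47% of all tested genes did. Calls are more frequent at high counts, and 14.6% of the 2974 tested genes with a mean of at least 800 were called, as were 2 of the 4 members in that range. The median log2 fold change of the 8 tested members was 0.28, with 6 above 0 and 2 below, against -0.01 for all tested genes.

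**Figure D2:**
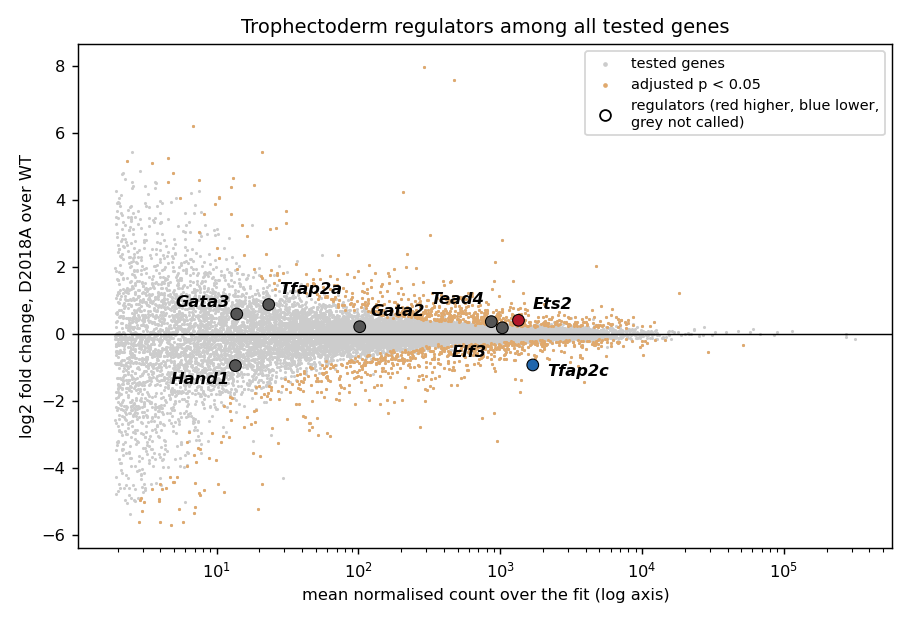
Log2 fold change of D2018A over WT against the mean normalised count over the fit (log axis) for all 15285 tested genes, with called genes in orange and the 8 tested regulators as large points. Tfap2c lies at -0.93 and Ets2 at 0.40, both outside the grey band at their mean, whereas Gata2, Gata3, Hand1, Tfap2a and Elf3 lie within it and Tead4 lies at its edge.

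Tfap2c (ENSMUSG00000028640, chromosome 2, 172549593 to 172558622, plus strand) had a mean over the fit of 1694 normalised counts. Its limit was 3335 in WT and 1746 in D2018A. The log2 fold change was -0.93 ± 0.09 (SE), so D2018A cells held 0.523 of the WT level, with a 95% interval from 0.463 to 0.592. The adjusted p-value was 2.11e-22. By p-value Tfap2c ranked 39 among the 15285 tested genes and 22 among those lower in D2018A, and 83 of the 8673 tested genes with a mean of at least 100 fell at least as far. The fall also passed when tested against a change of 1.5-fold instead of none (adjusted p-value 0.0167). No exon base of Tfap2c is shared with another annotated gene, and no stretch of 50 bases, the length of the reads, occurs in transcripts of other genes.

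Ets2 (ENSMUSG00000022895, chromosome 16, 95702075 to 95721051, plus strand) had a mean of 1343 and limits of 1736 in WT and 2293 in D2018A. It rose by 0.40 ± 0.08 on the log2 scale, to 1.32 times the WT level (95% interval 1.18 to 1.48), with an adjusted p-value of 8.17e-05. Its rank by p-value was 413. With wider errors the adjusted p-value was 0.0302. The rise did not pass when tested against a change of 1.5-fold (adjusted p-value 1). Like Tfap2c, Ets2 shares no exon base and no stretch of 50 bases with another gene.

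Tead4 (ENSMUSG00000030353, chromosome 6, 128224288 to 128300823, minus strand) encodes the TEA domain factor that starts the trophectoderm programme. Its mean was 864 and its log2 fold change 0.36 ± 0.13, a ratio of 1.28 (95% interval 1.08 to 1.53). The adjusted p-value of 0.0526 missed the threshold, and the interval of this single gene lay above 0. When only genes with a mean of at least 10 entered the adjustment the value was 0.0459, and with wider errors it was 0.512, so the call of Tead4 depends on these choices.

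Elf3 (chromosome 1, 135253575 to 135258568), an epithelial ETS factor, had a mean of 1034 and differed by 0.18 ± 0.12 on the log2 scale (adjusted p-value 0.484). At this precision an estimate beyond 0.34 on the log2 scale, in either direction, would have been called. The interval from -0.06 to 0.41 does not reach a change of 1.5-fold. It rests on the deposited errors, which treat technical replicates as separate libraries and may be too small. Of its exon bases 162 are shared with an antisense gene, Gm26642, and counting is not stated to use strand. Gata2 (chromosome 6, 88193891 to 88207032), which acts with Gata3 in trophoblast, had a mean of 102 and differed by 0.21 ± 0.29 on the log2 scale (adjusted p-value 0.791). An estimate for Gata2 under 0.81 on the log2 scale, in either direction, would not have been called.

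The 3 members with means between 10 and 30 had wider errors. Tfap2a (chromosome 13, 40715302 to 40738376), the AP-2 alpha gene and a paralog of Tfap2c, had a mean of 23.3 and a log2 fold change of 0.87 ± 0.51 (adjusted p-value 0.367, 95% interval -0.12 to 1.87). Tfap2a and Tfap2c thus had estimates of opposite sign, but only that of Tfap2c passed the test and the difference between them was not tested. Gata3 (chromosome 2, 9857078 to 9890034), a direct target of TEAD4 in the embryo, had a mean of 13.9 and a log2 fold change of 0.59 ± 0.85 (adjusted p-value 0.804). Hand1 (chromosome 11, 57828705 to 57832818), which drives formation of trophoblast giant cells, had a mean of 13.6 and a log2 fold change of -0.95 ± 0.69 (adjusted p-value 0.519). For Gata3 and Hand1 estimates below 2.41 and 1.97 on the log2 scale, in either direction, would not have been called. True differences of about that size or smaller could thus be missed at this depth. Tfap2a shares 718 exon bases with 3 antisense genes and Gata3 shares 232 with 2 other genes, 1 of them on its own strand, which adds uncertainty to both counts.

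Cdx2 (chromosome 5, 147300805 to 147307270) and Elf5 (chromosome 2, 103411688 to 103450989) received no adjusted p-value, like other genes with means of at most 1.93. The mean of Cdx2 was 1.49 and that of Elf5 1.13, which over 12 libraries amounts to 17.9 and 13.6 normalised reads in all. How these reads were shared between the genotypes cannot be told from the table. The standard errors of the log2 fold changes were 2.90 for Cdx2 and 2.47 for Elf5, so the fitted points drawn for both in the plot of intervals give no direction, and a difference between genotypes was not detectable. The plot of intervals shows this loss of precision from the top of the list to the bottom.

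**Figure D3:**
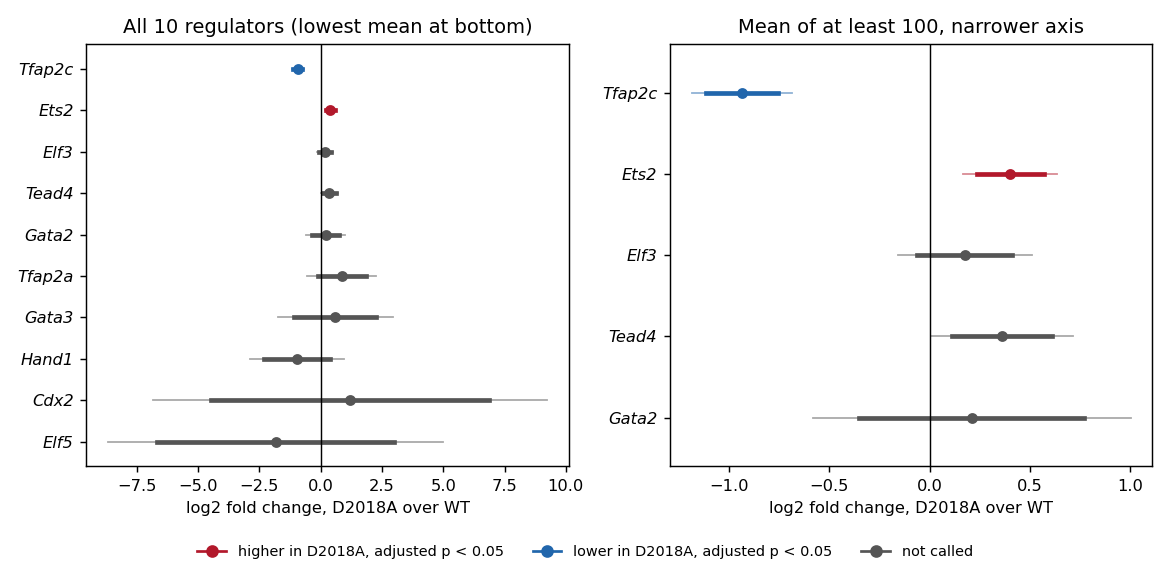
Log2 fold change of D2018A over WT for each regulator (points), with its 95% interval (thick bars) and the interval with wider errors (thin bars), ordered by mean, with the 5 members of highest mean repeated on a narrower axis. Only Tfap2c (-0.93) and Ets2 (0.40) are called, and the intervals of Cdx2 and Elf5 span from below -4 to above 3.

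Genes within 500 kb of Tfap2c, Ets2 and Tead4 with a mean of at least 10 were compared with them. Of all tested genes 8.71% were called, so among 4 to 11 neighbours few calls or none would be likely in any case. None of the 8 neighbours of Tfap2c was called (lowest adjusted p-value 0.0891). Their log2 fold changes ran from -0.60 for Bmp7 to 0.24 for Rbm38, and Rtfdc1, the closest, was at -0.11 ± 0.10. None of the 4 neighbours of Ets2 was called (lowest adjusted p-value 0.118), with values from -0.23 (Brwd1) to -0.00 (Psmg1). Of 11 neighbours of Tead4 only Itfg2 was called, at -0.48 ± 0.16 (adjusted p-value 0.0314), opposite in sign to the estimate for Tead4. The median log2 fold change of tested genes with a mean of at least 100 was 0.01 on chromosome 2 and -0.00 on chromosomes 6 and 16. These genes were chosen after the values of the members had been seen.

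**Figure D4:**
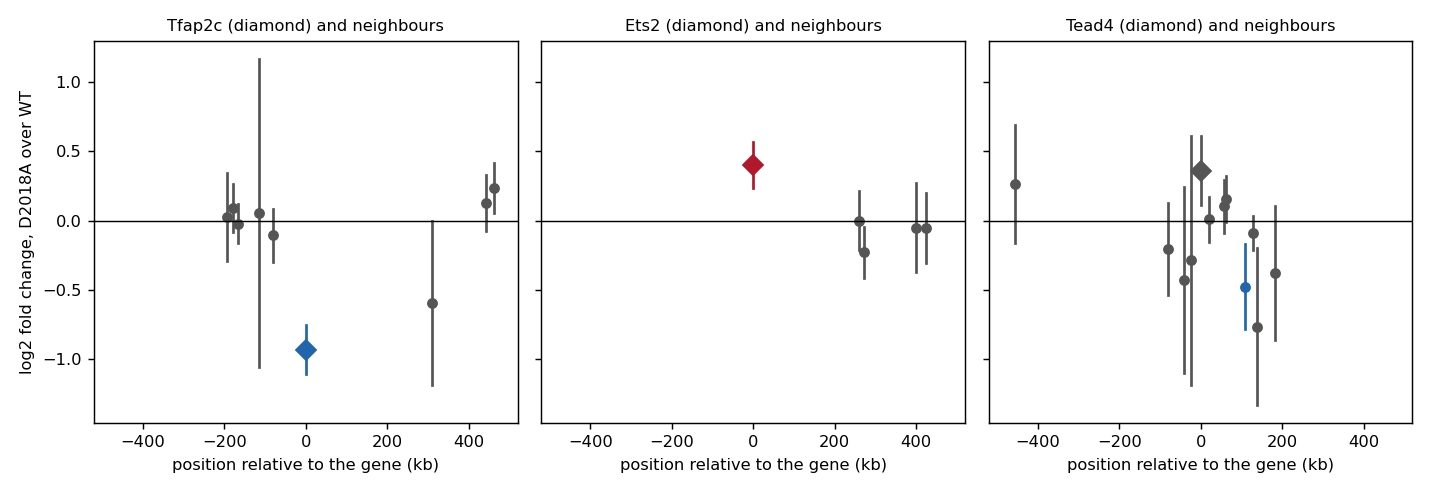
Log2 fold change of D2018A over WT with 95% intervals for Tfap2c, Ets2 and Tead4 (diamonds) and for their neighbours within 500 kb (circles), by position relative to the gene in kilobases, negative toward the start of the chromosome. Tfap2c (-0.93) lies below neighbours between -0.60 and 0.24, with the wide intervals of Bmp7 and Cass4 reaching it, Ets2 (0.40) lies above neighbours between -0.23 and -0.00, and the called circle is Itfg2 at -0.48.

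Signals from the Hippo pathway decide whether TEAD factors are active, because the LATS kinases keep YAP (Yap1) and TAZ (Wwtr1) out of the nucleus and VGLL4 competes with them for TEAD binding. Of 17 such genes, all of them tested, 5 were called, 3 higher and 2 lower, with a median log2 fold change of 0.03, against 8.71% of all tested genes called and a median of -0.01. Vgll4 rose by 1.94 ± 0.20 (adjusted p-value 3.99e-19), to 3.83 times the WT level. Amotl2, an angiomotin that binds YAP, rose by 1.04 ± 0.12 (1.51e-15), and Wwtr1 rose by 0.60 ± 0.10 (7.33e-08). The related angiomotin Amotl1 fell by 0.45 ± 0.12 (0.00535) and Tead1, the TEAD gene with the highest mean (4615), fell by 0.34 ± 0.08 (0.000246). The calls of Amotl1 and Tead1 were lost with wider errors, with adjusted p-values of 0.1997 and 0.0505. Yap1 (-0.06 ± 0.06, adjusted p-value 0.699) and Nf2 (0.11 ± 0.06, adjusted p-value 0.354) were not called. The remaining 10 genes, among them Lats1, Lats2, Tead2 and Tead3, had log2 fold changes from -0.33 to 0.80.

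Other genes of trophectoderm and trophoblast stem cells moved in both directions. Of 21 listed genes 19 were tested and 5 were called, 2 higher and 3 lower, beside 8.71% of all tested genes, and the median log2 fold change was -0.01, as over all tested genes. Eomes, the T-box factor of trophoblast stem cells, rose by 0.60 ± 0.18 (adjusted p-value 0.0162), and Id2, an inhibitor of helix-loop-helix factors, by 0.73 ± 0.19 (0.00260). Lrp2, an endocytic receptor, fell by 1.00 ± 0.22 (0.000133). Fgfr2, the receptor through which FGF4 maintains trophoblast stem cells, fell by 1.40 ± 0.41 (0.0114). The homeobox gene Rhox9 fell by 1.90 ± 0.60 (0.0213). With wider errors only Lrp2 remained called (adjusted p-value 0.0379), and the values were 0.320 for Eomes, 0.145 for Id2, 0.277 for Fgfr2 and 0.360 for Rhox9. The 3 genes of highest mean, Atp1b1 (788), Aqp3 (743) and Cldn4 (484), which serve the blastocoel and the tight junctions, had log2 fold changes of 0.20, -0.02 and -0.06 and were not called. The plot of both lists shows that several uncalled genes, such as Bmp8b (2.11) and Rhox6 (-1.55), had larger estimates than called ones, with wider intervals.

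**Figure D5:**
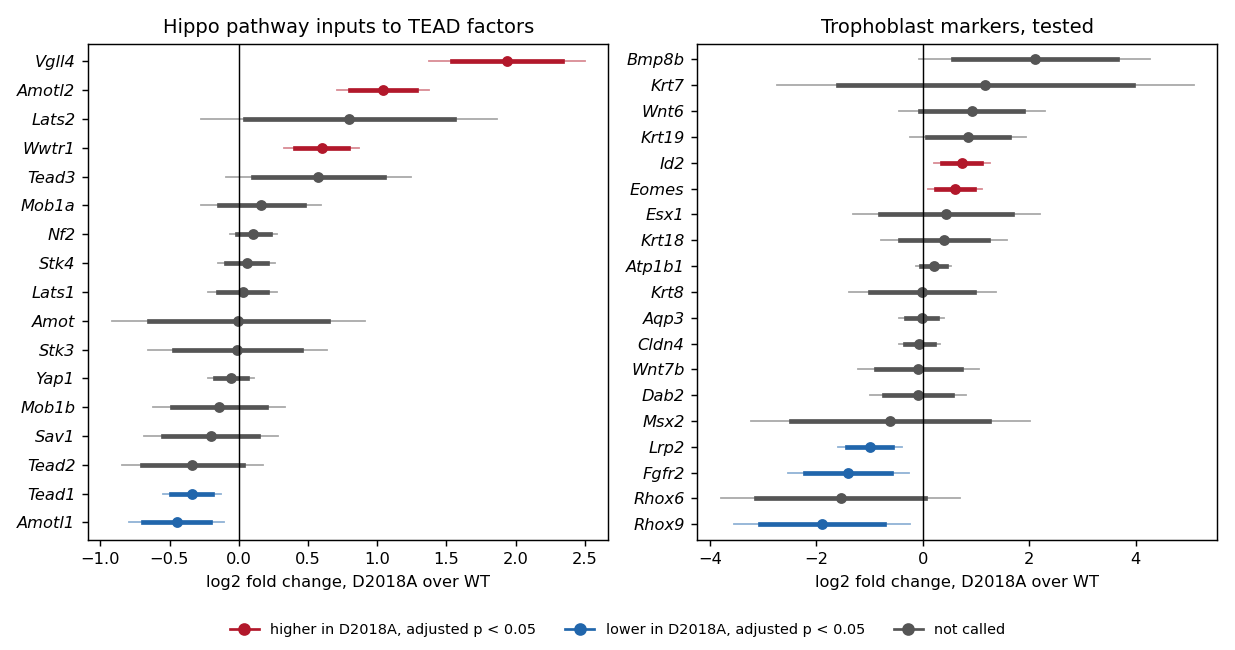
Log2 fold change of D2018A over WT (points) with 95% intervals (thick bars) and intervals with wider errors (thin bars), for 17 Hippo pathway genes and 19 tested trophoblast markers, sorted by fold change. Vgll4 (1.94), Amotl2 (1.04) and Wwtr1 (0.60) stand on the higher side of the first list, and the called genes of the second run from -1.90 (Rhox9) to 0.73 (Id2).

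A list of differentiated trophoblast genes, which also held the progenitor marker Plet1, gave no call. Of 16 listed, 9 were in the table and 6 were tested, and 0 of these 6 passed, with 1 (Cited1) at an unadjusted p-value under 0.05. Of all tested genes 8.71% were called, so a count of 0 among 6 genes does not set the list apart. Plet1 (mean 377), a surface marker of trophoblast progenitors, had a log2 fold change of -0.27 ± 0.16, and Ascl2 (mean 74.7), a factor of the spongiotrophoblast, 0.21 ± 0.33. Gcm1, which starts syncytiotrophoblast formation, had a mean of 0.856 and no adjusted p-value. Among 18 paralogs of the members 14 were tested and 2 were called, beside 8.71% of all tested genes. Both were lower, and the median log2 fold change of the tested paralogs was -0.16. The called paralogs were Tead1, counted above among the Hippo genes, and Gata4 (-0.92 ± 0.29, adjusted p-value 0.0209, and 0.356 with the wider errors). Neither call was kept with wider errors. The ETS genes Elf4 (0.06 ± 0.11) and Elf2 (0.09 ± 0.11), which have the highest means after Tead1, were not called.

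Markers of other cell types were compared across the genotypes beside these results. None of the 8 embryonic stem cell markers was called by DESeq2. All 8 had means of at least 800, a range in which 14.6% of tested genes were called, so this count does not set them apart. Their log2 fold changes ran from -0.16 (Sox2) to 0.18 (Nanog), although 3 of them, Sox2, Nanog and Esrrb, had unadjusted p-values under 0.05. Of 6 primitive endoderm markers, all of them tested, 2 were called, beside 8.71% of all tested genes. Sox7 rose by 1.21 ± 0.13 (adjusted p-value 2.25e-18) and Gata4 fell, and Gata6 had 3.24 ± 1.24 with an adjusted p-value of 0.0839. Of the fibroblast markers Col1a1 rose by 1.21 ± 0.24 (1.45e-05) and Thy1 had -0.25 ± 0.24 (0.674), while Col1a2 and Col3a1 stood at means of 0.689 and 0.0930. Fewer cells of a type and less RNA per cell cannot be told apart in these bulk samples, and the part of such cells in the values of the members was not tested.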

How the data were processed

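RNA-seq of 8 libraries was considered, from WT lines 2 and 5 and D2018A lines 7 and 8 with 2 technical replicates each. Per the labels and the methods, the authors depleted ribosomal RNA, aligned single-end reads of 50 bases to GRCm38.p6, counted genes with STAR 2.5.3a, and normalised and compared them with DESeq2 1.20.0. Their deposited table gives a mean normalised signal over the fit, the log2 fold change with its standard error, the Wald score, and the p-value with its adjusted p-value, and no values per library. These are columns of the authors' own comparison and were used as deposited, since no count model could be fitted. The score has the sign opposite to the fold change. Adjusted p-values were recomputed over the 15285 tested genes, and 0 differed by over 1%.

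With Python 3.11.15, pandas 2.3.3 and SciPy 1.17.1, 95% Wald intervals, genotype limits, levels per kilobase (GENCODE vM21 exons, 19342 genes matched) and adjusted p-values under other settings were computed, after tests on simulated data. The depth per library is unknown beyond size factors, and p-values treat technical replicates as separate libraries. The members and gene lists were chosen with earlier results of these data known. Named are all members, the embryonic stem cell markers and, of other lists, called genes and the 3 of highest mean, except 1 gene that is not reported here. Genes named outside this rule (Lats1, Lats2, Tead2, Tead3, Cited1, Gcm1, Bmp8b, Rhox6, Col3a1, Foxa2 and neighbours of members) were chosen after their values were seen. Promoter sequences are from RefSeq.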

Additional observations from a re-analysis of the deposited data

Results flagged for a closer look

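The fit behind the deposited table held a signal from 4 libraries whose reads moved neither WT nor D2018A in the comparison. The means of the members include these libraries, and their share in each mean was not tested.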

How the results depend on the processing

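The count of 2 called members was 2 with no filter on low counts, with wider errors, with centring on the median gene and at an adjusted p-value under 0.01. With a mean of at least 10 it was 3, as Tead4 (0.36) passed, since fewer genes were tested. It was 1 when changes were tested against 1.5-fold, which Ets2 did not pass, as follows from the stricter hypothesis. Of the 13 called genes of the other lists 6 stayed called with wider errors, and 9 at an adjusted p-value under 0.01. With wider errors the adjusted p-value was 1.11e-10 for Tfap2c and 0.0302 for Ets2, and over the alternatives other than the test against 1.5-fold that of Ets2 ran from 6.89e-05 to 0.0302. The alternatives left the fold changes as they were or, with centring, shifted them all by the same small amount, so they do not test the signs. With the longest transcript as length the levels per kb were 493 for Elf3, 567 for Tfap2c, 281 for Tead4, 345 for Ets2, 28.6 for Gata2, 7.12 for Hand1, 6.68 for Tfap2a, 4.31 for Gata3 and 0.346 for Elf5, and 6 of 10 members kept their place. No paired analysis was possible because the table has no values per library, and leaving out single replicates could not be run for the same reason. The 2 lines per genotype limit all p-values, and counts under 30 limit 5 members.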
